A study of Mus musculus with 24 samples.

Results

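Of the 65535 MspI fragments in the RRBS table of infant brown adipose tissue (BAT), 679 carried the name of a zinc finger gene, written Zfp and a number, outside the zinc finger gene cluster of distal chromosome 2. They were chosen by that name in the authors' annotation, leaving out rows within that cluster, a rule that uses no methylation value. The 679 fragments belonged to 26 genes, 5 on chromosome 1, 17 on chromosome 2 and 4 on chromosome 3, and another 16 Zfp fragments of the cluster were set aside. RRBS cuts DNA with MspI at CCGG and counts methylated and not methylated CpG calls after bisulfite conversion. The 24 libraries were 12 DDT and 12 VEH, all from female C57BL/6J mice at PND 12. In DDT the dams had been gavaged with the o,p' and p,p' isomers of DDT in olive oil from midgestation until the first days after birth, and in VEH with the olive oil alone. Every library pooled the BAT of several female littermates of 1 litter, so the litter was the replicate and differences between pups cannot be seen. BAT pads also hold muscle, blood and endothelial cells, and the DNA was not sorted by cell type.

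The methylation level of a fragment was its percentage of methylated calls in a library with at least 10 calls. Testing asked for a level in 8 or more VEH and 8 or more DDT libraries, which 260 of the 679 fragments met, at 24 of the 26 genes. Zfp142 had 4 fragments and Zfp937 had 1, and none of these was tested. DDT replicate 4 stood apart, with a level in 149 of the 260 fragments and a mean of 16.4% over them, and DDT replicate 12 had a level in 231 with a mean of 31.9%. The other 22 libraries had a level in 220 to 260 of these fragments and means of 34.5% to 37.8%. Each of these means is over a different set of fragments, so they do not compare levels alone. On the 125 of the 260 that every library covered, DDT replicate 4 averaged 16.28% and DDT replicate 12 averaged 18.68%. There the other 22 ran from 18.65% to 20.25%, so DDT replicate 4 was below them and DDT replicate 12 just within their range. Over the 10399 tested fragments of the whole table that every library covered, both were below the other 22. DDT replicates 4 and 12 were there at 16.48% and 17.50%, and the lowest of the others, DDT replicate 7, at 17.95%. The leading differences between DDT and VEH are given with and without DDT replicates 4 and 12.

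The C2H2 zinc finger is a short protein fold that holds a zinc ion between a pair of cysteines and a pair of histidines, and arrays of such fingers read DNA sequence. Many of these proteins also carry a KRAB domain, which recruits the corepressor Trim28 and, with it, the histone methyltransferase Setdb1 and DNA methylation to silence transposable elements and some genes. Because the fingers repeat a conserved motif, the exons that encode them are a type of coding sequence found in many copies across the genome. Translation of the GENCODE M21 coding sequences gave between 1 finger match, in Zfp704 and Zfp804a, and 40, in Zfp142. A KRAB A box was matched in 6 genes, Zfp120, Zfp334, Zfp345, Zfp442, Zfp663 and Zfp937. The match used a short motif on the longest coding sequence of each gene, so a KRAB box that departs from it would be missed. Zfp238 is the older name of Zbtb18, a transcriptional repressor of neural development, and was the only gene matched through a synonym rather than its symbol.

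The following reference sequences of GRCm38 are shown on the plus strand with each CpG in capitals, because the results turn on them. The Zfp345 fragment at chr2:150500549-150500641 had the smallest p of the 260, with 14 CpGs in 93 bp, and lies 15458 bp upstream of the gene's nearest start.
Zfp345 upstream: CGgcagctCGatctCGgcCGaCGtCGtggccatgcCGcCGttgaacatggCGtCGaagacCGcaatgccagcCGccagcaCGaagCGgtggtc
The Zfp64 fragment at chr2:168926488-168926670 and the Zfp697 fragment at chr3:98427983-98428119 both encode parts of fingers and differed widely in level. Fingers take up 132 of the 183 bases in the first and 75 of the 137 bases in the second.
Zfp64 fingers: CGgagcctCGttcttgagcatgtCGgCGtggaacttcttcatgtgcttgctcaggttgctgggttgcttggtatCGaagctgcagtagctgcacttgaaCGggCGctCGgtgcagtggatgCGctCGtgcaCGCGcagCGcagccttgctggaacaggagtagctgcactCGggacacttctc
Zfp697 fingers: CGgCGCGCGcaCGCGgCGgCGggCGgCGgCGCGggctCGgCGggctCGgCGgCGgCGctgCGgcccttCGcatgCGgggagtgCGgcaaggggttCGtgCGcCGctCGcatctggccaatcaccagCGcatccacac
The Zfp334 fragments at chr2:165380255-165380338 and chr2:165381130-165381259 encode fingers of 1 protein and have 6 CpGs each.
Zfp334 fingers, first: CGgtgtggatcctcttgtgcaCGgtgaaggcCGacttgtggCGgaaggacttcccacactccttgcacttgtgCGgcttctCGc
Zfp334 fingers, second: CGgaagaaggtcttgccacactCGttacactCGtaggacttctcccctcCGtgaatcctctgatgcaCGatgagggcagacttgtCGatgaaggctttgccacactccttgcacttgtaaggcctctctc
The fragment at chr2:170131234-170131410, at a start of Zfp217, held 33 CpGs in 177 bp, the most of the tested start fragments with no UTR.
Zfp217 start: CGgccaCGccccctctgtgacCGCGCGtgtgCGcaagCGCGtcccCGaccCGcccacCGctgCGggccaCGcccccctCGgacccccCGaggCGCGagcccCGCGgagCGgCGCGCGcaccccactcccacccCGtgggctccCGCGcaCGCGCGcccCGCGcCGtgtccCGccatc
A set of 4 fragments upstream of Zfp704 are near copies of 36 bp, at chr3:9683091-9683126, chr3:9683127-9683162, chr3:9683163-9683198 and chr3:9683271-9683306.
Zfp704 copy a: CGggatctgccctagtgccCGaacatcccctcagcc
Zfp704 copy b: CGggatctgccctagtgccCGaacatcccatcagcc
Zfp704 copy c: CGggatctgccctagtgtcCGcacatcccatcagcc
Zfp704 copy d: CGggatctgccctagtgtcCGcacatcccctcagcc

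The first question was how these genes are methylated in the VEH litters. Gene starts had low levels and coding exons, introns and distant fragments had mixed or high levels. A start fragment lay within 1000 bp of the start of any GENCODE protein-coding transcript of its gene. The 106 tested start fragments, at 19 genes, had a median VEH level of 3.70%, beside 4.25% for all 8569 tested start fragments of the table, and 88 of the 106 were under 10%. The 32 fragments in coding exons away from starts had a median of 54.3%, the 28 elsewhere in gene bodies 86.5%, the 32 outside the gene within 50 kb 62.6% and the 62 beyond 50 kb 55.7%. For all tested fragments of the table these medians were 74.2%, 70.0%, 16.4% and 67.5%. The order of starts below coding exons held in each of the 24 libraries when taken over fragments that had no missing level. There the 69 start fragments averaged 4.43% ± 0.406 in VEH and 4.41% ± 0.849 in DDT (SD over 12 libraries each). For the 16 coding exon fragments these means were 24.5% ± 1.16 and 23.3% ± 2.27. The lowest DDT values, 3.04% at starts and 16.6% in coding exons, were those of DDT replicate 4.

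**Figure D1:**
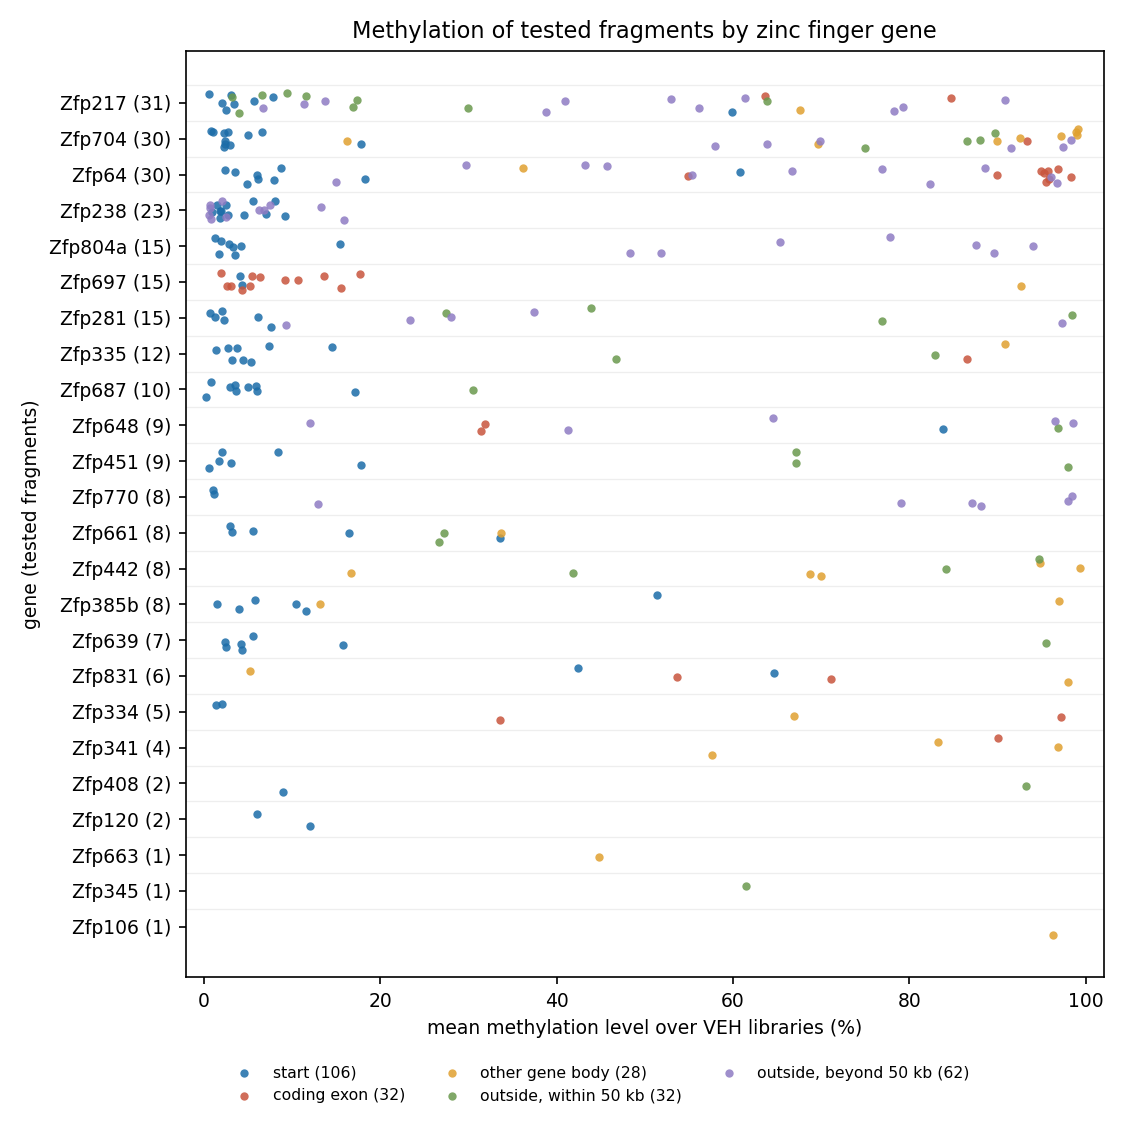
Mean methylation level over the VEH libraries (horizontal axis, %) of the 260 tested fragments, by gene (vertical axis, with the number of tested fragments) and position (colour, with the number of fragments). Start fragments sit near 0 in most genes, and the coding fragments of Zfp697 sit below 20% while those of Zfp64 mostly sit above 80%.

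In 13 of the 19 genes every tested start fragment was under 20% in VEH. Zfp704, whose product has 1 finger match, had 11 start fragments between 0.787% and 17.8%, while its 9 gene body fragments ranged from 16.2% to 99.1%. Zfp804a, an orthologue of a gene linked to schizophrenia risk, had 8 start fragments between 1.22% and 15.5%. Zfp687 had 9 between 0.246% and 17.1%, Zfp335, a nuclear regulator needed for neural progenitors, had 8 between 1.40% and 14.6%, and Zfp281, a transcription factor of pluripotent cells, had 6 between 0.661% and 7.58%. Zfp451, a SUMO ligase gene, had 6 between 0.548% and 17.9%, and Zfp639 had 6 between 2.40% and 15.7%. The Zfp238 start, in a CpG island, had 12 fragments between 0.935% and 9.17%. The remaining genes of these 13 were Zfp334 at 1.32% and 2.02%, Zfp697 at 4.13% and 4.32%, Zfp770 at 1.03% and 1.12%, Zfp120 at 5.99% and 12.0%, and Zfp408 with 1 fragment at 8.99%, which also lies at the start of Arhgap1.

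The other 6 genes had 7 start fragments at 20% or more. The highest was Zfp648 at chr1:154201623-154201706, in an intron, with 83.8% ± 7.09 (SD) in VEH and 81.3% ± 4.14 in DDT. The RefSeq promoter window of Zfp648, from 250 bases before to 50 after its start, holds 4 CpGs, beside a median of 7 over 32851 such windows. Zfp217, a transcriptional corepressor gene, had an alternate start with a window of 7 CpGs, where the fragment at chr2:170142812-170142843 was at 59.9% ± 5.15, and a main start with a window of 49 CpGs, where 7 fragments lay between 0.609% and 7.87%. The long Zfp217 fragment shown above was at 5.72% in VEH and 1.23% in DDT, with SDs of 14.6 and 2.65. Zfp64, a zinc finger transcription factor gene, had a fragment 767 bp upstream at 60.8%. Zfp385b had 51.4% at chr2:77817583-77817612, Zfp661 33.5% at chr2:127584267-127584415, and Zfp831 64.6% and 42.5% at its 2 fragments, both in coding sequence. CpG density marked the split: the 87 start fragments with 5 or more CpGs per 100 bp were all under 20%, with 17.9% the highest, while 12 of the 19 less dense ones were. For the whole table these shares were 96.5% of 7618 and 70.2% of 951.

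**Figure D2:**
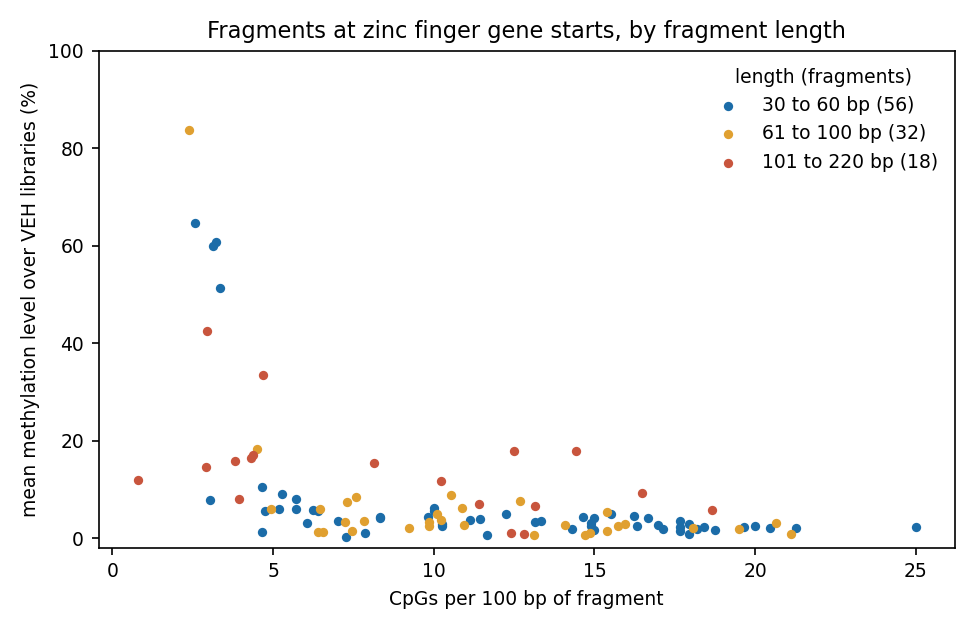
Mean VEH methylation level (vertical axis, %) against CpGs per 100 bp (horizontal axis) for the 106 tested start fragments, coloured by fragment length. The 7 fragments at 20% or more all have under 5 CpGs per 100 bp.

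The authors' CpG island annotation did not cover all dense starts. Of the 106 start fragments 32 had no island in it, 16 of these held 8 or more CpGs per 100 bp, and 27 of the 32 were under 20%. Those of Zfp697, Zfp770 and the main start of Zfp217 were among them. A dense unmethylated stretch also lay inside Zfp64. There, 7 fragments from chr2:168912164 to chr2:168912736, near an annotated internal transcript start, had VEH levels of 2.39% to 18.3%, whereas the coding fragments elsewhere in the gene stood at 89.9% to 98.3%, apart from one at 54.9%.

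Fragments of the finger-coding exons did not share a level. Part of a C2H2 finger was encoded by 19 tested fragments at 6 genes, of which 5 were over 80% and 9 under 20% in VEH, and all 9 of the low ones belonged to Zfp697. Zfp64 had 3 such fragments at 95.7%, 89.9% and 95.2%, the first being the sequence shown above, with 14 CpGs and 132 of its bases in fingers, and an SD of 1.10 over 12 VEH litters. The Zfp697 sequence shown, with 27 CpGs and 75 of its bases in fingers, was at 13.6% ± 1.62 in VEH and 12.1% ± 5.25 in DDT. All 12 coding fragments of Zfp697 lay between 1.97% and 17.7%, about 45 kb from the start, and held a median of 10.5 CpGs per 100 bp. The median of all 1691 tested coding exon fragments away from starts was 74.2%.

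Finger exons also differed within 1 gene. In Zfp334, one of the genes with a KRAB match, the first finger fragment shown was at 97.2% ± 2.38 in VEH and the second at 33.6% ± 8.98. In DDT they were at 97.3% ± 1.68 and 35.2% ± 10.9. Zfp648 had 2 adjoining finger fragments at 31.9% and 31.4% in VEH and 27.3% and 27.9% in DDT. Zfp341, whose human counterpart controls STAT3 transcription, had 1 at 90.0%, and Zfp106, with 3 finger matches and none in a tested fragment, had 1 intron fragment at 96.3% ± 2.49. Between DDT and VEH, 0 of the 19 finger fragments had an unadjusted p under 0.05, where 4.18% of all tested fragments did, and this count is too small to read anything from.

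**Figure D3:**
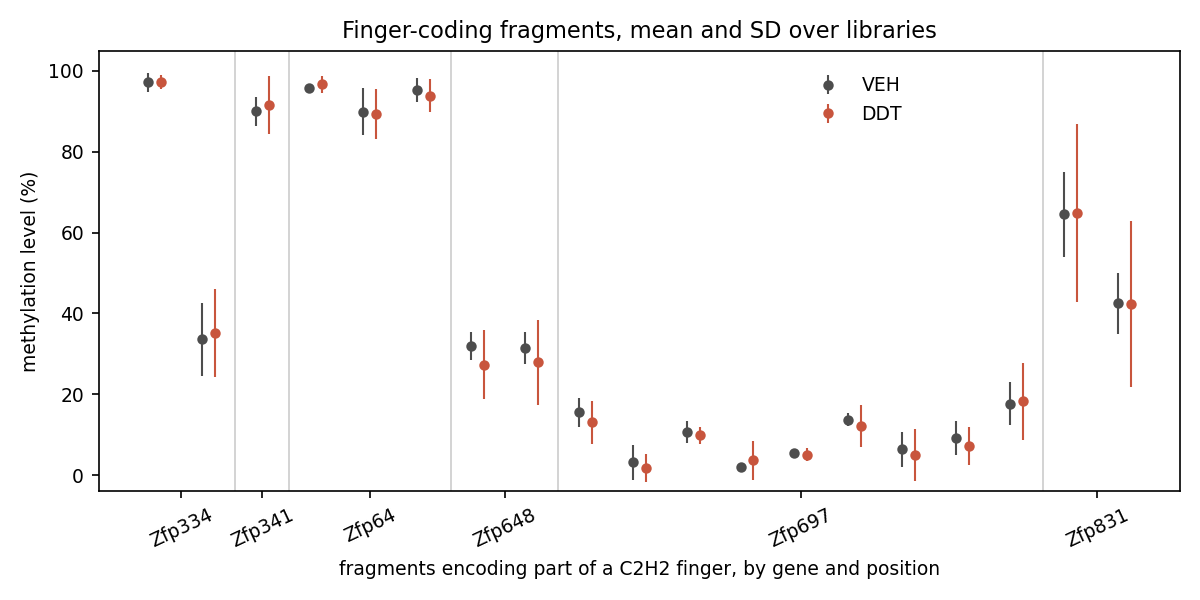
Methylation level (vertical axis, %) of the 19 fragments that encode part of a finger, grouped by gene and ordered by position, as mean and SD over VEH (grey) and DDT (red) libraries. Zfp64 and Zfp341 lie at 89% or above and Zfp697 below 20% in both groups, and the 2 Zfp334 fragments lie far apart.

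Of the 6 genes with a KRAB A box match, 5 had tested fragments, 17 in all. Zfp120 had 2 start fragments at 5.99% and 12.0%. Zfp442 had none at its start, 5 in an intron and 3 upstream, with VEH levels from 16.7% to 99.3%. Zfp663 had 1 intron fragment at 44.8% ± 1.94, and Zfp345 only the upstream one. The other 5 are those of Zfp334. Of the 17, 1 had a p under 0.05, the Zfp345 fragment, which is near the 4.18% of the table.

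Fragments that meet at a cut site often differed. Among 93 adjoining pairs of tested fragments, 22 were over 20 percentage points apart in VEH means and 11 over 40. No matching count over the whole table is given, so this is not read as particular to zinc finger genes. In a Zfp704 intron the fragment at chr3:9593644-9593685 was at 16.2% and its neighbour, which ends at 9593811, at 99.1%, and the neighbour was higher in 12 of 12 VEH libraries. In a Zfp442 intron a fragment at 94.9% met one at 16.7%, the second being lower in 11 of 11 libraries with both levels. Close by, the fragments at chr2:150412346-150412393 and chr2:150412463-150412510 are near copies of 48 bp that differ at 7 positions. Reads in this stretch may be placed on the wrong copy, which was not tested.

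The 36 bp copies upstream of Zfp704 differed from each other at 1 to 3 positions. Their VEH levels were 57.9% ± 1.66 in copy a, 69.9% ± 1.37 in copy b, 91.5% ± 1.85 in copy c and 63.8% ± 3.71 in copy d. Copies a and b differ at 1 position and copies c and d at 1. Reads of near copies can be placed on the wrong copy, so these levels may mix them, and that share was not tested.

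Some fragments carry the name of a distant gene. The authors' annotation named the nearest gene by its own rule, and 62 of the 260 lay over 50 kb from the named gene, up to 539199 bp for Zfp804a. At Zfp661, 3 of the start fragments also lay at the start of Mrps5.

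Among fragments with VEH means between 20% and 80%, the 5 with the widest spread between VEH litters lay at Zfp217, Zfp442 and Zfp64. Far upstream of Zfp217 the VEH level was 38.8% ± 19.0 at chr2:170288411-170288495 and 53.0% ± 13.7 at chr2:170288530-170288617. Upstream of Zfp442, a fragment with 1 CpG at chr2:150470236-150470265 was at 41.9% ± 15.2. Those of Zfp64 were at 36.2% ± 11.9 in an intron and 60.8% ± 11.6 near the start. None of these 5 had a p under 0.05 between the groups.

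The second question was whether perinatal DDT changed methylation at these genes. No fragment passed the adjusted threshold. With the ANOVA F test and Benjamini-Hochberg adjustment over all 20225 tested fragments, 0 of the 260 reached an adjusted p of 0.05, as did 0% of all fragments, and the smallest adjusted p was 0.869. Unadjusted, 8 of the 260 (3.08%) had a p under 0.05, beside 845 fragments (4.18%) in the whole table. Limma found 6 and quasi-binomial regression 17, at 2.31% and 6.54% of the 260, beside 3.51% and 7.72% of all. Of the 8, 7 were lower in DDT, where lower fragments made up 2.93% of the table, and 1 was higher, where higher ones made up 1.25%. With DDT replicates 4 and 12 left out, 5 fragments (1.95%, beside 4.51% of the table) had such a p, 4 lower and 1 higher. The share of the table's calls that were higher then went from 29.8% to 49.5%. By limma the direction was even, 3 lower and 3 higher. The 8 found by ANOVA lay at 5 genes, Zfp345, Zfp831, Zfp335, Zfp341 and Zfp704. The mean difference over the 260, DDT minus VEH, was -0.34 points, beside -0.31 over all tested fragments, and 154 of the 260 (59.2%) were lower in DDT, beside 56.9% of all. Without DDT replicates 4 and 12 the mean was 0.027 and 126 of 256 were lower. At the start fragments the mean difference was 0.039.

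**Figure D4:**
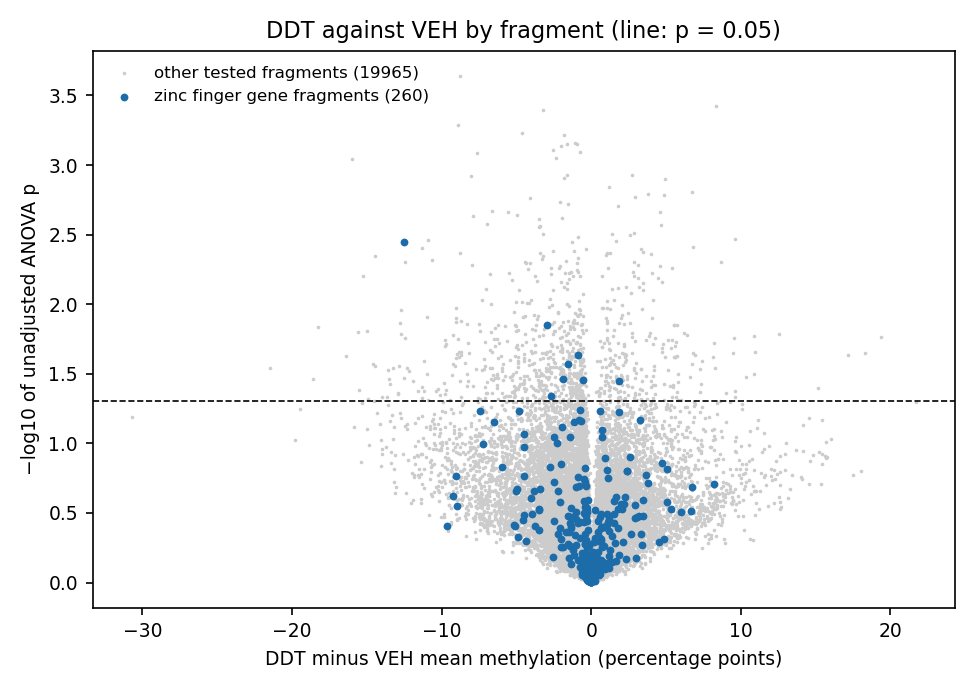
Unadjusted ANOVA p on a −log10 scale (vertical axis) against the DDT minus VEH difference in mean methylation (horizontal axis, percentage points) for all 20225 tested fragments, with the 260 zinc finger gene fragments in blue. Of the 260, 8 lie above the dashed line at 0.05, and the Zfp345 fragment at -12.5 points is the uppermost of them.

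The Zfp345 upstream fragment showed the largest difference of the 260 and the only one over 10 points. Its level in the 12 VEH libraries ran from 54.1% to 75.0% with a median of 60.7%, and in the 11 DDT libraries with a level from 23.5% to 65.9% with a median of 52.2%. The groups overlapped, with 10 of 11 DDT libraries below the VEH median. The means were 61.5% ± 6.29 (SD, n = 12) and 49.0% ± 11.5 (SD, n = 11), a difference of -12.5 points with a standard error of 3.91. The two-sided permutation p over 100000 resamples was 0.0017, the ANOVA p 0.0036 and the adjusted p 0.869, and 50 fragments of the table had an ANOVA p this small or smaller. Without DDT replicate 12, which held the lowest value, the difference was -9.96 points. The unadjusted p stayed under 0.05 in 31 of 31 alternative settings, and the smallest adjusted p among them was 0.382. The levels rested on 12 to 440 calls. Whether reads of similar sequences elsewhere were placed on this fragment was not tested, nor was any bearing of it on Zfp345. Few fragments this dense outside their named gene, which may lie within other genes, had such levels. Of 988 such fragments with 12 or more CpGs per 100 bp, 80 (8.10%) were at 50% or more in VEH. The median of the 988 was 2.92%.

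The next fragments had small differences. In Zfp831, the coding fragment at chr2:174644860-174644899 ran from 68.1% to 76.1% with a median of 70.9% in VEH and from 63.1% to 72.4% with a median of 68.1% in DDT. The means were 71.1% ± 2.43 (n = 12) and 68.1% ± 2.86 (n = 11), with a permutation p of 0.0134, and 9 of 11 DDT libraries were below the VEH median. Without DDT replicates 4 and 12 the difference was -2.81 points, with an ANOVA p of 0.0241. This fragment, which has 2 CpGs, is printed here because it came second.
Zfp831 coding: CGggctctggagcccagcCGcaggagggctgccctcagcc
In the same gene an intron fragment at chr2:174674245-174674276 was at 5.23% ± 1.58 in VEH and 3.36% ± 2.40 in DDT, with a permutation p of 0.0342. Without DDT replicates 4 and 12 its ANOVA p was 0.133.

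At the Zfp335 start, in a CpG island core, the fragment at chr2:164911467-164911502 ran from 2.72% to 4.80% in VEH, with a median of 3.60%, and from 0.076% to 4.11% in DDT, with a median of 3.05%. The difference of the means was -0.89 points with a permutation p of 0.0163, and 11 of 12 DDT libraries lay below the VEH median. Without DDT replicates 4 and 12 the DDT levels ran from 2.33% to 3.59% and the difference was -0.75 points. All 8 Zfp335 start fragments but the one at chr2:164910951-164911087 had a lower mean in DDT. This stood beside 65 of the 106 zinc finger gene start fragments (61.3%) and 56.9% of all tested start fragments. The 8 come from the same libraries and some adjoin, so they are not separate observations. In Zfp341, an intron fragment at chr2:154618752-154618787 ran from 80.2% to 86.3% in VEH, with a median of 82.9%, and from 78.8% to 83.6% in DDT, with a median of 82.1%. Its permutation p was 0.0258, and without DDT replicates 4 and 12 its ANOVA p was 0.0979. A second intron fragment of Zfp341, at chr2:154642124-154642250, with 1 CpG, was at 96.9% ± 2.71 (n = 11) and 94.2% ± 2.99 (n = 10), with a permutation p of 0.0447.

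**Figure D5:**
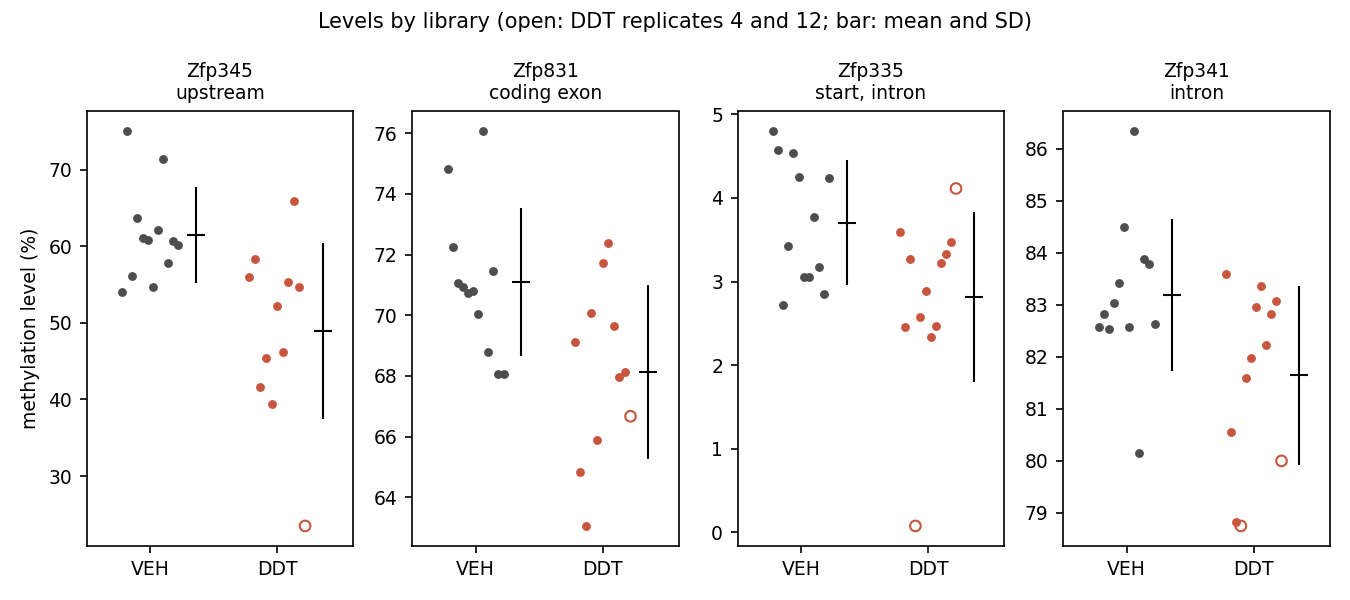
Methylation level by library (vertical axes, %, on separate scales that do not start at 0) of the 4 fragments with the smallest p, for VEH (grey) and DDT (red), with open circles for DDT replicates 4 and 12 and bars for mean and SD. In each panel the DDT libraries overlap the VEH libraries, and in Zfp345 the lowest DDT library is at 23.5%.

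Zfp704 gave both directions. At its start, the fragment at chr3:9609979-9610012 was at 2.34% ± 0.340 in VEH and 1.80% ± 0.760 in DDT (n = 12 each), with a permutation p of 0.0283, and without DDT replicates 4 and 12 its ANOVA p was 0.110. Copy c of the repeat upstream was the only one of the 8 that was higher in DDT, at 91.5% ± 1.85 (n = 12) and 93.3% ± 2.08 (n = 11), with a permutation p of 0.0354 and, without DDT replicates 4 and 12, an ANOVA p of 0.0549. Copies a, b and d had differences of 2.11, 3.81 and 3.43 points, with DDT SDs of 9.45 to 10.9, and none had a p under 0.05. Next in order, without a p under 0.05, were a Zfp804a start fragment at chr2:82053642-82053681, with 4.22% in VEH and 3.45% in DDT and a permutation p of 0.0515, and a fragment 133552 bp upstream of Zfp64, with 43.2% and 35.8% and a permutation p of 0.0506. Their differences without DDT replicates 4 and 12 were -0.36 and -5.04 points, with ANOVA p of 0.209 and 0.119.

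The spread was wider in DDT than in VEH. The SD over litters was larger in DDT at 208 of the 260 fragments (80%), beside 79.2% of all tested fragments, and the median SD was 3.84 points in DDT and 2.46 in VEH. Without DDT replicates 4 and 12 the DDT SD was larger at 165 of the 260 (63.5%), beside 59.98% of all, and the median was 2.81. Differences over 5 points occurred at 19 of the 260 (7.31%), 12 lower and 7 higher in DDT, beside 8.59% of all tested fragments. At 0 of the 260 did the groups not overlap, as at 0% of all tested fragments.

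The partners of KRAB zinc finger proteins could be followed only in part. Of 29 listed genes, 4 had fragments, all tested, namely Setdb1, the H3K9 methyltransferases Suv39h2 and Ehmt1, and the DNA methyltransferase Dnmt3b. Of their 10 tested fragments 1 had an unadjusted p under 0.05, in a Dnmt3b exon, with 68.1% ± 2.30 in VEH and 66.0% ± 1.75 in DDT (n = 12 each) and an adjusted p of 0.869 by ANOVA. That is 1 fragment, where 4.18% of the table had such a p. The median difference of the 10 was -1.29 points, beside -0.16 over all tested fragments. Suv39h2 and Dnmt3b held 4 of the 10 each, and the 4 of Suv39h2, all at its start, had a mean difference of -2.44 points. The single fragments of Setdb1 and Ehmt1 differed by 1.61 and -0.016 points. The median is not given without DDT replicates 4 and 12, and no shift across the partners is read from it.

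Markers of cell types were read at their starts. The adipocyte gene Fabp4 was at 10.04% in VEH and 7.60% in DDT, and Fabp5 had 2 fragments at 1.25% and 1.29% in VEH. The muscle genes Myog, Neb and Actc1 were at 50.1% to 78.4%, 94.4% and 93.3% in VEH, while those of Des (8.37% and 12.3%) and Ttn (13.7%) were low, and the blood gene Cd2 was at 66.8%. Of the tested fragments, 0 of 5 of the adipocyte, 3 of 23 of the muscle, 1 of 10 of the blood and 0 of 6 of the endothelial lists had an unadjusted p under 0.05, beside 4.18% of the table, and none passed adjustment. The part of cell makeup in the values above was not tested.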

How the data were processed

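Before the authors deposited them, the 50 bp single-end RRBS reads were trimmed with Scythe and Sickle and aligned to GRCm38 with Bismark 0.15.0 and Bowtie 2. The deposited values are counts of CpG calls, methylated and not methylated, per MspI fragment and library, not normalized, with the authors' annotation of gene, region class, CpG island class and distances. The table covered chromosomes 1, 2 and part of 3. Against the GRCm38 sequence, 100% of fragments started at an MspI cut and were 30 to 220 bp long. The authors deposited no columns of other samples. Reads cover the ends of longer fragments, so a level is that of the CpGs read.

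The libraries held 8371958 to 14124652 calls, of which 113337 to 196876 lay in the 679 fragments, and a level rested on 10 to 11287 calls. PCR copies are not told apart, so call numbers overstate the molecules counted. The test was the ANOVA F test on levels with Benjamini-Hochberg adjustment over 20225 fragments (threshold 0.05), following the statistics the authors describe. Permutation tests used 100000 resamples. The alternatives comprised a quasi-binomial logistic regression, limma 3.58.1 on log2((methylated + 1) / (not methylated + 1)), minimums of 5 and 20 calls, a level in all 24 libraries, a depth covariate, a replicate block, each library left out, and only fragments inside the gene or within 5000 bp upstream. Leaving out DDT replicates 4 and 12 together, and the authors' own gene starts, were added after the data were seen. The tests were tested on simulated calls.

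Gene positions came from GENCODE M21 and promoter windows from RefSeq (GRCm38.p6), where 24 of the 26 genes had one. One result is not reported here. The rule for the members uses names and positions only, but it and the gene lists were chosen with earlier results of these data known. Named singly are the 10 fragments with the smallest p, the fragment nearest each start, the genes with most fragments, the 5 with the largest VEH SD among those with VEH means of 20% to 80%, coding exon fragments and genes with a KRAB match. The adjoining pairs and the dense fragments outside their named gene were chosen after their values were seen. So were the copies upstream of Zfp704 and in a Zfp442 intron. Python 3.11.15, NumPy 2.4.6, pandas 2.3.3, SciPy 1.17.1, matplotlib 3.10.9 and R 4.3.3 were used.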

Additional observations from a re-analysis of the deposited data

Results flagged for a closer look

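In 26 groups of 8 to 10 libraries with a level at a named fragment, 7 had 1 library far from the others. The rule's nominal chance rate is 5% of groups, but that rate was not checked for bounded percentages, some on few calls. The VEH and DDT groups of the Zfp238 and Zfp770 fragments are counted separately. The 7 of 26 is therefore not read as an excess. At the Zfp238 start (chr1:177442301-177442470) VEH replicate 6 was at 31.6% and the next at 11.8%, and DDT replicate 5 was at 45.8% and the next at 22.7%, on 19 and 24 calls. At the Zfp770 start (chr2:114201354-114201482) VEH replicate 4 was at 6.00% on 50 calls and the next at 2.22%. There DDT replicate 12 was at 5.85% on 171 calls, with the next at 0%. In the Zfp442 intron DDT replicate 12 was lowest at 96.7% on 60 calls, with the next at 98.3%. In a Zfp64 coding exon DDT replicate 6 was lowest at 88.9% on 45 calls, with the next at 94.5%. At the Zfp704 start DDT replicate 2 was highest at 9.68% on 31 calls, with the next at 4.71%. By ANOVA these 5 fragments all had an unadjusted p above 0.05.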

How the results depend on the processing

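The count of zinc finger gene fragments past the adjusted threshold was 0 in all settings run. The count at an unadjusted p under 0.05 was 8 of 260 (3.08%, beside 4.18% of the table). It was 17 with the quasi-binomial regression (6.54% beside 7.72%) and 4 of 125 with a level in all 24 libraries (3.20% beside 4.24%). Without DDT replicates 4 and 12 it was 5 (1.95% beside 4.51%). With each library left out the lowest count was 5 (DDT replicate 12 out, 1.93% beside 4.44%). The highest was 16 (DDT replicate 11 out, 6.35% beside 5.38%). The share of these that were higher in DDT, 12.5%, was 50% with limma, 0% with a level in all 24 libraries and 0% inside the gene or within 5000 bp upstream, and ran from 0% to 42.9% with each library left out. In the whole table this share was 29.8%, 42.6% without DDT replicate 4 and 49.5% without DDT replicates 4 and 12. For the KRAB partner list the count of 1 was 2 with the quasi-binomial regression, 0 with limma and 2 without DDT replicates 4 and 12, and ran from 1 to 2 with each library left out. The mean difference over the 260 fragments ran from -0.457 to -0.161 points with each library left out, -0.161 without DDT replicate 4 and -0.184 without DDT replicate 12, and was 0.027 without both. The mean at start fragments ran from -0.105 to 0.131, was -0.097 with the authors' own gene starts and was 0.184 without DDT replicates 4 and 12. The 10 fragments with the smallest p stayed short of the adjusted threshold in 316 of 316 alternative fits. They kept their direction in each fit that recomputed the difference. The quasi-binomial, limma, depth covariate and replicate block fits took over the main difference, so the direction of these 10 was not tested there. The cause of the changes between settings was not tested. The labels state no pairing of libraries by replicate number. Deviations of same-numbered libraries correlated between -0.180 and 0.199, which does not settle whether they were paired. With a replicate block 7 of 260 fragments (2.69%, beside 4.12% of the table) had an unadjusted p under 0.05. Fragments with few calls and few libraries limit what small differences can be seen.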

Other observations

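At gene starts, fragments longer than 100 bp had a higher median level than shorter ones. The 18 zinc finger gene start fragments longer than 100 bp had a median VEH level of 13.3% and 11 of them were over 10%, whereas the 56 of 30 to 60 bp had a median of 3.49% and the 32 of 61 to 100 bp 3.02%. For all tested start fragments of the table the medians were 11.04%, 3.63% and 4.15%. The median number of calls per CpG and library fell from 219 in the shortest class to 27.8 and 9.20 in the longer ones among the zinc finger genes. In Zfp451, Zfp687, Zfp704 and Zfp804a the highest start level, 17.9%, 17.1%, 17.8% and 15.5%, was that of a fragment over 100 bp, whereas in Zfp217, Zfp281, Zfp385b, Zfp648 and Zfp831 the highest, 59.9%, 7.58%, 51.4%, 83.8% and 64.6%, was that of a shorter one. The part of fragment length in these levels was not tested.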
